A study of Arabidopsis thaliana with 48 samples.

Results

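A long recovery separated the seedlings compared here from the heat treatment they received. The comparison takes 6 of the 48 libraries of the series, all from Arabidopsis thaliana Col, the wild type (accession Col-0): 3 libraries of seedlings harvested 52 h after acclimation (ACC+52h, here 52 h) and 3 of seedlings that were given no heat stress (NTC, here no HS). They were chosen by genotype and treatment alone, so no measured value entered the choice. Seedlings grew under 16 h of light and 8 h of darkness, and ACC, given to seedlings 4 d old, was a stepwise heat treatment of 1 h at 37 °C, 90 min at 23 °C and 45 min at 44 °C. Whole seedlings were used, each value is a mix of shoot and root, and total RNA was sequenced as paired reads. The other libraries of the series, which served to estimate the spread and are used below for side-by-side values, were Col at 4 h and 28 h and the mutants hsfa2, hsfa3-1 and hsfa2 hsfa3-1 at the same times, making 16 groups of 3 biological replicates.

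Heat stress makes proteins unfold, and plants answer through heat shock factors (HSFs), transcription factors that bind heat shock elements in promoters and switch on chaperone genes. Small heat shock proteins hold unfolded proteins in a state from which HSP101 and the HSP70 system can recover them. Most of these transcripts fall back soon after heat, but a smaller set stays raised for days, which is called HS memory, and HSFA2 and HSFA3 are factors known to act in it.

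The 6 libraries held 32545289 to 33679916 read pairs on protein-coding genes, so 3 read pairs, the level taken as the limit of detection, correspond to 0.0891 to 0.0922 CPM (read counts scaled to a common library total). Values below are CPM after TMM normalization, intervals and limits cover counting error only, and ± after a log2 fold change is its standard error. The first principal component of the 6 libraries carried 58.7% of the variance and separated 52 h from no HS. The next carried 18.1% and set replicate 1 of both groups apart from the other libraries, and 52 h replicate 1 was also the farthest out on the first. Without replicate 1 of all groups, 392 genes rose and 388 fell, 313 and 324 of them among the 456 and 454 described below, and 82 of the 96 named genes kept their call and direction. Replicates of a group correlated at 0.984 to 0.992 on the log2 scale. The labels do not give the age or the hour of the day at which the no HS seedlings were harvested. Heat given, seedling age and harvest hour therefore cannot be told apart in any difference below.

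At 52 h the Col seedlings still differed from unheated seedlings in a small share of their genes. Of 21107 protein-coding genes tested, 456 were higher (2.16%) and 454 were lower (2.15%) at an absolute log2 fold change above 1 and an edgeR adjusted p below 0.05, and such genes are said here to have risen or fallen. More of the rises than of the falls were large: 163 of the 456 exceeded a log2 fold change of 2 and 60 exceeded 3. In the other direction 49 and 10 of the 454 did. The largest values were close, at 7.80 and -7.55. A mean below 1 CPM was found for 112 of the rises and 44 of the falls, and its part in the difference was not tested. The median log2 fold change was 1.70 among the genes that rose, -1.33 among those that fell and 0.02 over all genes. With no threshold on the fold change, 1636 genes were higher (7.75%) and 1494 were lower (7.08%). In 434 of the 456 every library at 52 h lay above every library without HS, as in 20.2% of all genes tested, and in 440 of the 454 every library lay below, as in 18.3% of all genes. The count of rises went to 214 without replicate 3 of all groups. The count of falls went to 301 without replicate 2 and 169 without replicate 3 of all groups, to 277 without no HS replicate 2 and to 247 without 52 h replicate 1.

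**Figure D1:**
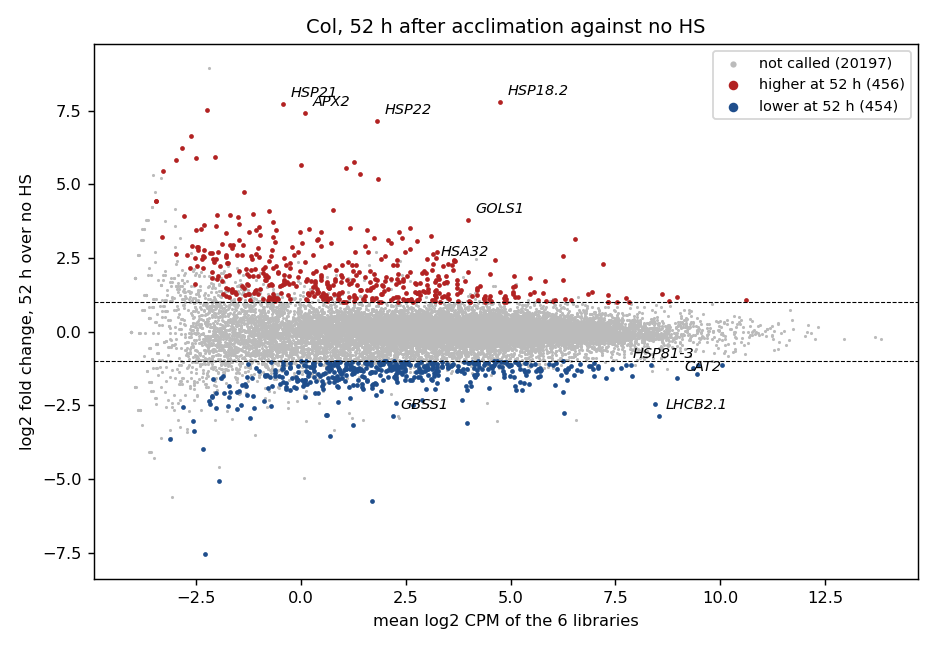
Log2 fold change at 52 h over no HS in Col against the mean log2 CPM of the 6 libraries, 1 point per gene tested. Dashed lines mark log2 fold changes of 1 and -1. The 456 genes that rose are red and the 454 that fell are blue. HSP18.2, HSP21, APX2 and HSP22 lie near the top of the genes that rose, and a gene that did not pass the test reached 8.93.

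Small heat shock proteins, the ATP-independent holdase chaperones, held several of the largest rises. Of the 18 members of the list, 13 rose and none fell, where 2.16% of all genes rose, with a median log2 fold change of 3.38 beside 0.02 over all genes. HSP18.2 (AT5G59720, chromosome 5), a cytosolic member, was at 2.47, 1.64 and 1.38 CPM without HS and 548, 273 and 404 CPM at 52 h (log2 fold change 7.8 ± 0.53, edgeR adjusted p = 7.58e-13), a 223-fold difference. HSP22 (AT4G10250, chromosome 4), whose product enters the endoplasmic reticulum, was at 0.339, 0.478 and 0.0611 CPM without HS and 51.1, 34.7 and 41.2 CPM at 52 h (log2 fold change 7.15 ± 0.72, edgeR adjusted p = 1.01e-08). HSP21 (AT4G27670, chromosome 4), the plastid member, was at 0, 0.0299 and 0.0611 CPM without HS and 13.2, 4.3 and 4.38 CPM at 52 h. The no HS libraries held only 3 read pairs of HSP21 in all, so its ratio of 242 has a wide 95% counting interval, from 82.7 to 1179 (edgeR adjusted p = 1.25e-07). In all of these the groups were far apart, and 52 h replicate 1 was the highest library of HSP18.2, HSP22 and HSP21. Without replicate 1 of all groups their log2 fold changes were 7.79, 7.09 and 6.45, and 11 members of the list rose.

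The cytosolic class members followed the same pattern. AT1G53540, annotated as an HSP20-like chaperone (chromosome 1), was at 0.432, 0.239 and 0.306 CPM without HS and 31.7, 12.1 and 9.5 CPM at 52 h (log2 fold change 5.76 ± 0.92, edgeR adjusted p = 3.66e-05). HSP17.6A (AT5G12030, chromosome 5) was at 0.709, 0.507 and 0.52 CPM without HS and 30.7, 18.5 and 14.6 CPM at 52 h (log2 fold change 5.19 ± 0.84, edgeR adjusted p = 4.75e-05). HSP17.6II (AT5G12020, chromosome 5) was at 0.524, 0.537 and 0.214 CPM without HS and 13.8, 5.47 and 3.08 CPM at 52 h (log2 fold change 4.12 ± 0.81, edgeR adjusted p = 0.000529). Replicate 1 was again the highest at 52 h in all of these, and it was the highest in 11 of the 13 members that rose. HSP17.4 (log2 fold change 5.35), AT5G37670 (3.51), AT1G52560 (3.39), the mitochondrial HSP23.6-MITO (3.37), AT2G29500 (2.42), AT1G07400 (1.96) and AT2G19310 (1.08) also rose. HSP17.4 shares its annotated region with another gene, so its counts are uncertain. The other members were AT1G59860 at a log2 fold change of 1.2 (edgeR adjusted p = 0.0719), AT1G54050 at 0.28, AT4G21870 at 0.09, AT5G54660 at -0.04 and AT5G51440, which was -0.68 with an adjusted p of 0.323. Leaving out single libraries or replicate numbers gave 10 to 14 members that rose. Without 52 h replicate 1, HSP23.6-MITO and AT1G07400 missed the threshold, and both also missed it without any one of the no HS libraries. AT2G19310 missed it without no HS replicate 2 or 52 h replicate 2.

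Heat shock elements are built of GAA units in alternating orientation. Windows of 300 bases, from 250 bases before to 50 after the annotated gene start in the TAIR10.1 assembly of RefSeq, were searched on both strands for 3 such units (GAANNTTCNNGAA). The motif stood in 115 of 21106 windows of genes tested (0.545%), in 8 of the 456 genes that rose (1.75%) and in 5 of the 454 that fell (1.1%). It was in 2 of the 18 small heat shock protein genes and in 3 of the 23 HSP70, HSP90 and HSP100 genes. Those 3 were AT3G09440, which fell, and HSP70 and CPHSC70-2, which did not pass the test. Among the genes named below, the motif was also in the windows of ELIP1, which fell, and of DREB2A, which did not pass the test. These are descriptions with no test, and the windows of HSP18.2, HSP22, HSP21, APX2 and HSA32 held no match to these letters. The search took exact matches only, so elements that deviate from these letters or lie outside the windows were not counted. By chromatin immunoprecipitation the paper found HSFA2 and HSFA3 at promoter sequences with heat shock elements in HSP22, HSP18.2, HSA32 and APX2. The matches in 3 genes that rose (AT1G53540, HSP17.4 and GOLS1) and in HSFA2, which did not pass the test, are shown 5′ to 3′ on the strand of the gene, with the motif or its reverse complement in capitals.
AT1G53540, chr1:19980236-19980268, plus strand: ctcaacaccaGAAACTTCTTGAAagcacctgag
HSP17.4, first match, chr3:16984944-16984976, minus strand: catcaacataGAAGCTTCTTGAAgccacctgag
HSP17.4, next match, chr3:16984863-16984895, minus strand: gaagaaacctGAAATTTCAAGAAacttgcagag
GOLS1, chr2:19370556-19370588, minus strand: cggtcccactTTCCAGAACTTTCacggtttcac
HSFA2, chr2:11135526-11135558, plus strand: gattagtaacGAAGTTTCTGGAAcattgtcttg

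Other heat-induced genes were raised as well. Of 17 listed, 10 rose (11 without replicate 1 of all groups) and none fell, beside 2.16% of all genes that rose, with a median log2 fold change of 1.22. APX2 (AT3G09640, chromosome 3), a cytosolic ascorbate peroxidase that removes hydrogen peroxide, was at 0, 0.149 and 0.0306 CPM without HS and 11.1, 11.3 and 10.5 CPM at 52 h (log2 fold change 7.41 ± 0.50, edgeR adjusted p = 7.58e-13). The 52 h libraries of APX2 were close to one another, while the no HS libraries held 0, 5 and 1 read pairs. HSA32 (AT4G21320, chromosome 4), a heat-stress-associated protein needed for long acquired thermotolerance, was at 4.72, 3.28 and 4.07 CPM without HS and 23.3, 19.9 and 16.6 CPM at 52 h (log2 fold change 2.31 ± 0.22, edgeR adjusted p = 2.59e-09). GOLS1 (AT2G47180, chromosome 2), which makes galactinol for raffinose sugars, was at 6.48, 2.84 and 3.85 CPM without HS and 67.8, 55.1 and 59.1 CPM at 52 h (log2 fold change 3.79 ± 0.35, edgeR adjusted p = 2.04e-09). Every 52 h library was above every no HS library for HSA32 and GOLS1. BAG6 (AT2G46240, chromosome 2), a co-chaperone of the BAG family, was at 7.8, 8.27 and 7.34 CPM without HS and 34.2, 30.9 and 30.6 CPM at 52 h (log2 fold change 2.03 ± 0.28, edgeR adjusted p = 3.93e-06), again with no overlap. HSA32 and GOLS1 overlap neighbouring genes in the annotation, as do MBF1C, EGY3, FTSH6 and DREB2B, so reads could be split or shared there.

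The remaining rises of that list were the plastid protease FTSH6 (log2 fold change 3.9), the protease-like plastid protein EGY3 (1.79), the transcription factors DREB2B (1.53) and DREB2C (1.42), the immunophilin co-chaperone ROF2 (1.22) and the coactivator MBF1C (1.11). ROF2 missed the threshold without no HS replicate 2 or 3, DREB2C without no HS replicate 2 or 52 h replicate 1, and FTSH6 and MBF1C without replicate 3 of all groups. DREB2A, which acts upstream of HSFA3, was at a log2 fold change of 1.02 (edgeR adjusted p = 0.0683) and did not pass. Of 11 memory genes named by the study, 5 rose (HSP18.2, HSP22, HSP21, APX2 and HSA32), also without replicate 1 of all groups, beside 2.16% of all genes. The study measured HSA32, HSP18.2, HSP22 and HSP21 for sustained induction. It measured the other genes, APX2 among them, for stronger re-induction by a second heat treatment days later. That second treatment is not part of this comparison. The study also names TPR1, which was left out because the annotation gives that symbol to more than 1 locus. These genes were named for their known response to heat, so their count is not independent evidence of direction. Of the others, HSFA1E was at 4.04, 5.05 and 5.99 CPM without HS and 7.15, 7.93 and 7.63 CPM at 52 h (log2 fold change 0.59 ± 0.13, edgeR adjusted p = 0.00126), which passed the adjusted p and not the fold threshold, with no overlap of the groups. LPAT5 was at 0.41 (adjusted p = 0.039), and MIPS2 (-0.13), LACS9 (-0.18), DGS1 (-0.18) and MYB86 (-0.51) had adjusted p values of 0.672, 0.196, 0.0917 and 0.234. Without no HS replicate 2, MYB86 was at 0.029.

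The larger chaperones behaved otherwise. Of 23 HSP70, HSP90 and HSP100 genes, 1 rose and 4 fell, where 2.16% of all genes rose and 2.15% fell, with a median log2 fold change of -0.25. HSP70B (AT1G16030, chromosome 1) was the gene that rose, at 3.95, 4.39 and 3.12 CPM without HS and 42, 11.6 and 9.69 CPM at 52 h (log2 fold change 2.46 ± 0.65, edgeR adjusted p = 0.00864), and it missed the threshold without 52 h replicate 1. HSP81-3 (AT5G56010, chromosome 5), a cytosolic HSP90, was at 306, 317 and 331 CPM without HS and 139.6, 132 and 162 CPM at 52 h (log2 fold change -1.14 ± 0.14, edgeR adjusted p = 7.35e-07). AT3G09440, a cytosolic HSP70 family gene (chromosome 3), was at 338, 344 and 352 CPM without HS and 164, 152 and 163 CPM at 52 h (log2 fold change -1.11 ± 0.22, edgeR adjusted p = 0.000503). All 52 h libraries of both genes were below all unheated libraries. HSP70-2 (AT5G02490, log2 fold change -1.27) and the endoplasmic reticulum chaperone BIP3 (-2.09) fell too, BIP3 from levels under 1 CPM and not without no HS replicate 2 or 52 h replicate 3. HSP70-2 missed the threshold without replicate 2 of all groups. HSC70-1, a constitutive cytosolic HSP70, was at 2040.2, 1849 and 2098 CPM without HS and 1194, 1139 and 1241 CPM at 52 h (log2 fold change -0.74 ± 0.11, edgeR adjusted p = 7.57e-06), so it passed the adjusted p without reaching the fold threshold, as did HSP90.2 (-0.84, adjusted p = 0.000208). Over the alternatives the count of falls ran from 2 (without replicate 2 of all groups) to 9 (with no fold threshold) and that of rises from 0 to 2. In all 9 of the 23 passed the adjusted p alone in the lower direction and 2 in the higher. Many genes of this family have near-identical copies, HSP81-3 and HSP90.2 among them, so reads could be divided between copies.

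HSP101, the disaggregase, and HSP70, a heat-induced cytosolic HSP70, which the study uses as heat-inducible genes without memory, did not pass the test. HSP101 (AT1G74310) was at 17.3, 14 and 14.6 CPM without HS and 23, 22.2 and 19.3 CPM at 52 h (log2 fold change 0.49 ± 0.39, edgeR adjusted p = 0.408). HSP70 (AT3G12580) was at 114, 75.5 and 74.7 CPM without HS and 150.4, 148 and 137 CPM at 52 h (log2 fold change 0.72 ± 0.40, edgeR adjusted p = 0.225). In each gene the 52 h libraries were all above the no HS libraries, by less than the fold threshold on average, and the region of HSP101 overlaps another gene. Without replicate 1 of all groups, HSP101 was at 0.52 (edgeR adjusted p = 0.0138) and HSP70 at 0.91 (edgeR adjusted p = 0.00259). Both were then past the adjusted p and under the fold threshold. Over the alternatives the edgeR or DESeq2 adjusted p ran from 0.00752 to 0.67 for HSP101 and from 0.00259 to 0.59 for HSP70. HSP90.1, the heat-induced HSP90, was at a log2 fold change of 0.90 (edgeR adjusted p = 0.236).

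Among the heat shock factors, 2 of the 19 tested rose, beside 2.16% of all genes. HSFB2A (AT5G62020), a class B factor, which class is known for repression, was at 10.3, 11 and 12.2 CPM without HS and 27.2, 22.9 and 27.4 CPM at 52 h (log2 fold change 1.21 ± 0.23, edgeR adjusted p = 0.000477). HSFA8 (AT1G67970) was at 6.01, 6.78 and 5.38 CPM without HS and 18.8, 9.16 and 15.7 CPM at 52 h (log2 fold change 1.26 ± 0.29, edgeR adjusted p = 0.00267). Neither had overlapping groups, and HSFA8 missed the threshold without replicate 1 or 3 of all groups. HSFA2 was at 1.08, 1.67 and 1.31 CPM without HS and 6.49, 1.67 and 1.07 CPM at 52 h (log2 fold change 1.17 ± 0.64, edgeR adjusted p = 0.217): 52 h replicate 1 alone was high, the groups overlapped, and without replicate 1 of all groups the log2 fold change was -0.14. HSFA3 was at 5.55, 6.54 and 6.63 CPM without HS and 10.6, 7.14 and 9.89 CPM at 52 h (log2 fold change 0.56 ± 0.19, edgeR adjusted p = 0.0411), past the adjusted p and under the fold threshold, and its region overlaps another gene. The remaining factors lay between log2 fold changes of -0.18 (HSFB2B) and 0.90 (HSFA4A, adjusted p = 0.0624). HSFA9 and HSFB1 were not among the genes tested.

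The earlier harvests of Col place these levels in time. They share the no HS libraries with the 52 h comparison, so values are set side by side only. At 4 h HSP18.2 averaged 8241 ± 70.1 CPM (mean ± SD, n = 3 at each time), followed by 3602 ± 1597 CPM after 28 h and 408 ± 138 CPM after 52 h. HSP22 averaged 3610.3 ± 307 CPM, 325 ± 66 CPM and 42.3 ± 8.25 CPM in the same order. APX2 averaged 621 ± 23.7 CPM, 35.4 ± 3.69 CPM and 11 ± 0.40 CPM. The mean of each was lower at each later harvest. HSP101 was at 4507 ± 809 CPM at 4 h and 44 ± 13.7 CPM at 28 h, and HSP70 at 13665 ± 1327 CPM and 196 ± 69.97 CPM. These means too were lower at each later harvest, the 52 h values being those given above. Of the small heat shock proteins, 16 were higher than without HS at 4 h, when 16.9% of all genes were, and 15 at 28 h, when 4.72% were. Of the larger chaperones, 20 of 23 were higher at 4 h and 7 at 28 h. HSP81-3 was at 1098 ± 61.6 CPM at 4 h and at 28 h stood below the unheated mean, at 123 ± 21.3 CPM.

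**Figure D2:**
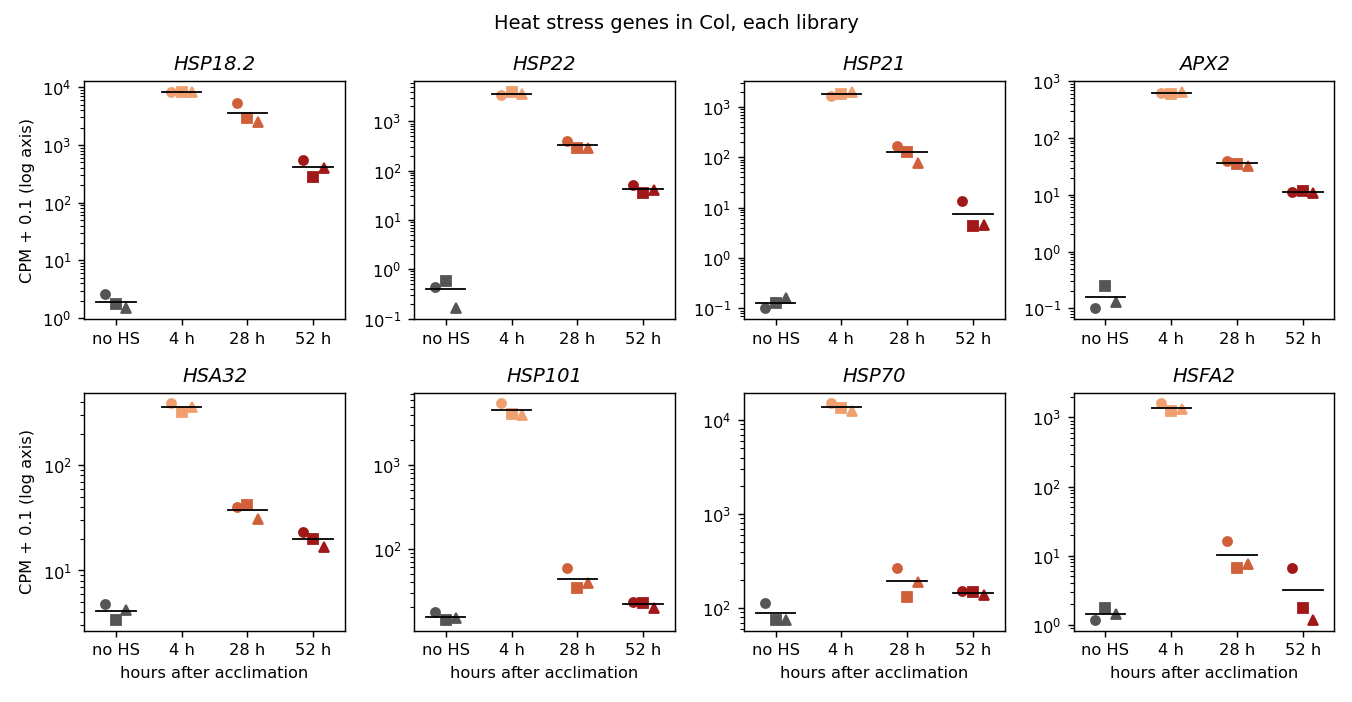
CPM + 0.1 on a log axis for 8 heat stress genes in each Col library, without HS and at the 3 recovery times (4, 28 or 52 h); circles, squares and triangles are replicates 1, 2 and 3 and bars are means. HSP18.2, HSP22, HSP21, APX2 and HSA32 stay apart from the no HS libraries at 52 h, while HSFA2 overlaps them.

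Outside the heat list, the genes with the largest rises were of mixed kind. AT1G21550, a calcium-binding EF-hand protein (chromosome 1), was at 0.0617, 0.0597 and 0.245 CPM without HS and 8.41, 4.07 and 6.44 CPM at 52 h (log2 fold change 5.65 ± 0.89, edgeR adjusted p = 2.99e-05). LTP4 (AT5G59310, chromosome 5), a lipid transfer protein, was at 0.524, 0.0896 and 0.367 CPM without HS and 7.33, 12 and 26.7 CPM at 52 h (log2 fold change 5.55 ± 0.63, edgeR adjusted p = 1.04e-07). GLC (AT1G65450, chromosome 1), an HXXXD-type acyltransferase, was at 0.0617, 0.0896 and 0 CPM without HS and 1.86, 1.26 and 1.19 CPM at 52 h (log2 fold change 4.72 ± 1.07, edgeR adjusted p = 0.00231), from 2, 3 and 0 read pairs without HS, and missed the threshold without replicate 3 of all groups. LTP4 was highest in 52 h replicate 3, and none of the groups overlapped. CYP82C4 (AT4G31940, chromosome 4), a cytochrome P450, was at 0.308, 0.269 and 0 CPM without HS and 0.571, 8.37 and 1.05 CPM at 52 h (log2 fold change 4.09 ± 0.99, edgeR adjusted p = 0.00455). AT2G18190, a P-loop nucleoside triphosphatase (chromosome 2), was at 0.0617, 0.119 and 0.183 CPM without HS and 4.9, 0.263 and 0.904 CPM at 52 h (log2 fold change 4.01 ± 0.91, edgeR adjusted p = 0.00234). Each of these last values rests on a single library: without 52 h replicate 2 CYP82C4 missed the threshold, and without 52 h replicate 1 AT2G18190 did. GLC was at 0.034 ± 0.0589 CPM at 4 h and 0.18 ± 0.133 CPM at 28 h, both below its 52 h mean of 1.44 ± 0.371 CPM, whereas AT2G18190 was at 9.03 ± 5.25 CPM at 28 h, above its 52 h mean of 2.02 ± 2.51 CPM.

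Smaller groups of stress genes contributed few members. Each count in these groups is read beside the 2.16% of all genes that rose and the 2.15% that fell. Of 15 dehydration, ABA and cold response genes, 2 rose and 1 fell, beside 2.16% and 2.15% of all genes: the chloroplast cryoprotective protein gene COR15B was at 15, 6.0 and 12.5 CPM without HS and 74.3, 40.6 and 64.5 CPM at 52 h (log2 fold change 2.42 ± 0.51, edgeR adjusted p = 0.00108), and the cold-response factor CBF1 at 0.0925, 0.0299 and 0.306 CPM without HS and 3.12, 0.586 and 1.05 CPM at 52 h (log2 fold change 3.44 ± 0.97, edgeR adjusted p = 0.0134), with 52 h replicate 1 high and the call lost without it or without no HS replicate 2. P5CS1, for proline synthesis, fell (log2 fold change -1.18, edgeR adjusted p = 0.0438) and missed the threshold without any one of the 6 libraries. GOLS1 and GOLS4 (2.72) rose among 10 galactinol and raffinose genes. Among 11 salicylic acid defence genes, CBP60G (1.93) and CYP71A12 (1.6) rose and ICS1, the salicylic acid synthesis enzyme, fell (-1.16). CYP71A12 missed the threshold without no HS replicate 1 or 3 or 52 h replicate 3. Of 10 DNA damage response genes the cell cycle inhibitors SMR5 (1.88) and SMR7 (1.25) rose, SMR7 not without 52 h replicate 3. All 10 were above 0, as were 10993 of all 21107 genes tested, and 4 of the 10 passed the adjusted p. SMR5, COR15B, GOLS4 and P5CS1 overlap another annotated gene. COR15B, GOLS4, ICS1, CBP60G, CBF1 and SMR7 missed the threshold without replicate 3 of all groups, and CBP60G, CYP71A12, CBF1 and P5CS1 also without replicate 1. Of 13 iron status genes, the iron-deficiency factors BHLH38 and BHLH100 passed the test with overlapping groups: BHLH100 was at 2.65, 15.2 and 4.55 CPM without HS and 7.03, 63.1 and 48.2 CPM at 52 h (log2 fold change 2.4 ± 0.79, edgeR adjusted p = 0.0355). In both genes 52 h replicate 1 stood below the highest unheated library, and each call was lost without no HS replicate 1 or 3 or 52 h replicate 2 or 3. Both calls were also lost in the fits of the 6 libraries and of the 12 Col libraries alone, and that of BHLH100 with DESeq2.

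Light-harvesting genes of photosystem II were among the largest falls. LHCB2.1 (AT2G05100, chromosome 2) was at 1733, 637 and 859.6 CPM without HS and 220.5, 100.2 and 120.3 CPM at 52 h (log2 fold change -2.87 ± 0.39, edgeR adjusted p = 3.28e-06), 7.32-fold lower. LHCB2.2 (AT2G05070, chromosome 2) was at 1329.8, 535 and 747 CPM without HS and 240.0, 114 and 126 CPM at 52 h (log2 fold change -2.44 ± 0.35, edgeR adjusted p = 7.15e-06). Replicate 1 was the highest library of both groups, and the groups did not overlap. LHCB2.3 (-2.74), LHCB1.1 (-1.43) and LHCB4.2 (-1.12) fell as well, the last 2 not without no HS replicate 1, and LHCB1.1 not without 52 h replicate 2, and neither without replicate 3 of all groups. LHCB2.1 averaged 1919 ± 357 CPM at 4 h and 451 ± 114 CPM at 28 h. The 5 that fell were among 24 antenna and Rubisco small subunit genes, beside 2.15% of all genes that fell. The median log2 fold change of the 24 was -0.17. The others lay between -0.69 (LHCB3, adjusted p = 0.0296) and 0.25 (LHCA2). LHCB1.3 was at -0.23 and RBCS1A at -0.18, with adjusted p values of 0.372 and 0.385. The 3 LHCB2 genes are close copies of one another, so their reads could be divided between them, and LHCB2.3 and LHCB4.2 overlap a neighbour.

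Other leading falls concerned starch, respiration and light stress. GBSS1 (AT1G32900, chromosome 1), the granule-bound starch synthase that makes amylose, was at 19.1, 10.3 and 8.59 CPM without HS and 1.47, 1.73 and 2.01 CPM at 52 h (log2 fold change -2.86 ± 0.36, edgeR adjusted p = 8.85e-07). NDA1 (AT1G07180, chromosome 1), an alternative NAD(P)H dehydrogenase, was at 32.4, 8.87 and 9.97 CPM without HS and 4.81, 1.79 and 2.63 CPM at 52 h (log2 fold change -2.47 ± 0.55, edgeR adjusted p = 0.0021). The unheated and 52 h libraries of both genes were separate, with no HS replicate 1 highest. ELIP1 (AT3G22840, chromosome 3), an early light-induced protein of the thylakoid, was at 15.1, 52.9 and 33.5 CPM without HS and 7.03, 5.88 and 7.29 CPM at 52 h (log2 fold change -2.33 ± 0.76, edgeR adjusted p = 0.0337). Its relative ELIP2 (AT4G14690, chromosome 4) was at 9.65, 24.5 and 16.4 CPM without HS and 3.15, 3.45 and 3.53 CPM at 52 h (log2 fold change -2.32 ± 0.54, edgeR adjusted p = 0.00321). The ELIP groups did not overlap, but ELIP1 missed the threshold without no HS replicate 2 or 3 or any one 52 h library, and NDA1 and ELIP2 missed it without replicate 3 of all groups. CAT2, the main leaf catalase of photorespiration, was at 1234, 687 and 757 CPM without HS and 405, 249 and 247 CPM at 52 h (log2 fold change -1.57 ± 0.27, edgeR adjusted p = 0.000112), and its region overlaps another gene. It was the only one of 16 antioxidant enzyme genes that fell, beside 2.15% of all genes. APX2 was the only one that rose, beside 2.16% of all genes.

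The rest of the 12 falls named by rule, AT1G29090 being the largest of them, were of mixed kind. AT1G29090, a cysteine proteinase (chromosome 1), was at 34.3, 67.4 and 36.8 CPM without HS and 4.17, 6.35 and 5.79 CPM at 52 h (log2 fold change -3.08 ± 1.07, edgeR adjusted p = 0.0465), and missed the threshold without any one of the 6 libraries. AT2G15020, an uncharacterized protein (chromosome 2), was at 5.86, 1.49 and 5.17 CPM without HS and 0.45, 0.673 and 0.65 CPM at 52 h (log2 fold change -2.81 ± 0.54, edgeR adjusted p = 0.000462). FRO5 (AT5G23990, chromosome 5), a ferric reduction oxidase, was at 10.2, 12.5 and 10.8 CPM without HS and 1.62, 1.93 and 2.68 CPM at 52 h (log2 fold change -2.42 ± 0.44, edgeR adjusted p = 0.000185). No groups overlapped in these 3 genes, and AT2G15020 missed the threshold without replicate 3 of all groups. CYP71B13 (AT5G25140, chromosome 5), a cytochrome P450, was at 5.64, 3.58 and 3.12 CPM without HS and 0.781, 0.908 and 0.678 CPM at 52 h (log2 fold change -2.38 ± 0.31, edgeR adjusted p = 1.68e-06). AT2G14760, a basic helix-loop-helix factor (chromosome 2), was at 0.463, 1.55 and 1.01 CPM without HS and 0.12, 0.205 and 0.17 CPM at 52 h (log2 fold change -2.58 ± 0.46, edgeR adjusted p = 0.000185). GA2OX7 (AT1G50960, chromosome 1), which inactivates gibberellins, was at 0.709, 1.1 and 1.9 CPM without HS and 0.15, 0.0586 and 0.509 CPM at 52 h (log2 fold change -2.34 ± 0.62, edgeR adjusted p = 0.00862), and its call was lost without no HS replicate 3 or 52 h replicate 1 or 2. These last 3 genes, too, had separate groups at low levels.

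Some morning genes of the circadian clock were lower at 52 h. Of 18 clock genes 3 fell and none rose, beside 2.15% of all genes that fell. Over the 18, 11 were above 0 and 7 below, with a median log2 fold change of 0.16. By the adjusted p alone 4 were higher and 4 lower. LHY was at 5.43, 6.15 and 3.82 CPM without HS and 0.871, 2.22 and 1.44 CPM at 52 h (log2 fold change -1.76 ± 0.33, edgeR adjusted p = 0.000362). RVE8 was at 7.43, 4.69 and 4.28 CPM without HS and 1.53, 1.84 and 0.933 CPM at 52 h (log2 fold change -1.93 ± 0.27, edgeR adjusted p = 6.26e-06). CCA1 was at 5.09, 3.46 and 2.35 CPM without HS and 1.95, 1.26 and 1.44 CPM at 52 h (log2 fold change -1.23 ± 0.41, edgeR adjusted p = 0.0381). These transcripts are known to peak around dawn. CCA1 missed the threshold without no HS replicate 1 or 2 or any one 52 h library, and in the fit of the 12 Col libraries. PRR9, a morning gene at under 1 CPM, was at -1.72 (adjusted p = 0.0644). Among evening-phased genes, TOC1 (0.31), FKF1 (0.96), PRR3 (0.83) and ELF4 (0.49) were positive, with adjusted p values of 0.101, 0.00771, 2.87e-06 and 0.0188. Not every member of the list is named here. The hour of harvest is not given for either group, and its part in the result was not tested. LHY was at 6.54 ± 3.19 CPM at 28 h.

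Of 12 root hair, endodermis and root PIN2 markers 2 fell, beside 2.15% of all genes. All 12 had log2 fold changes below 0, with a median of -0.95, as had 10101 of all 21107 genes tested. The 10 xylem markers were likewise all below 0, as were 15 of 17 seed reserve, 20 of 24 antenna and Rubisco and 11 of 13 SPL or AP2-type genes. CASP5, a Casparian strip membrane protein of the endodermis, was at 13.3, 16.9 and 14 CPM without HS and 5.14, 5.91 and 5.71 CPM at 52 h (log2 fold change -1.4 ± 0.33, edgeR adjusted p = 0.00374). CASP1 was at 38.7, 55.9 and 47.3 CPM without HS and 16, 26.4 and 22.8 CPM at 52 h (log2 fold change -1.12 ± 0.32, edgeR adjusted p = 0.0165), and missed the threshold without no HS replicate 2 or 52 h replicate 1. The groups did not overlap in either gene, and both regions overlap a neighbour. Without replicate 2 or 3 of all groups neither passed. The root hair expansin EXPA7 was at -1.09 and the auxin carrier PIN2 at -0.85, with adjusted p values of 0.219 and 0.0959. The summed CPM of the 12 markers ran from 202 to 345 without HS and from 94 to 166 at 52 h, and none was at 0. In bulk RNA, fewer cells of a type and less RNA per cell cannot be told apart, and the part that the proportion of root plays in the other falls was not tested.

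**Figure D3:**
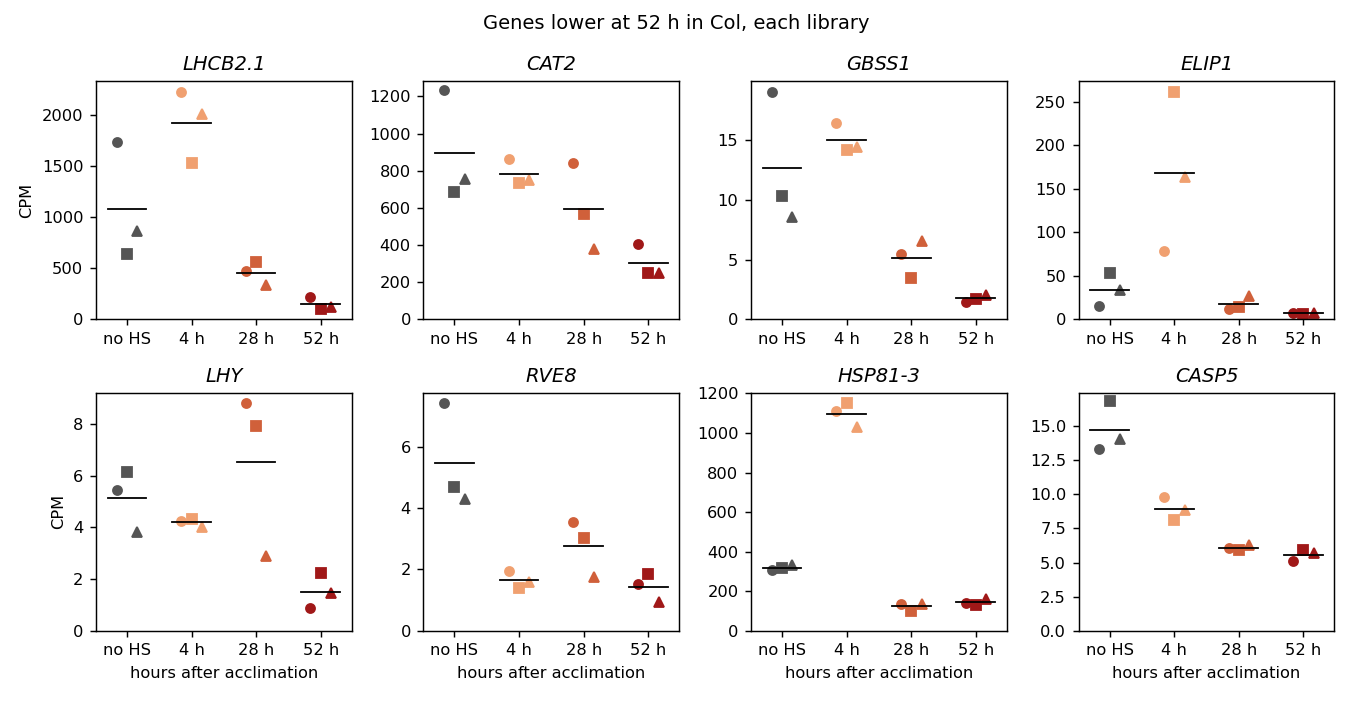
CPM on linear axes from 0 for 8 genes that fell, in each Col library, without HS and at the 3 recovery times (4, 28 or 52 h); circles, squares and triangles are replicates 1, 2 and 3 and bars are means. The 52 h libraries of each gene lie below its no HS libraries, and HSP81-3 is above them at 4 h.

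Several lists had no member past the threshold. Seed reserve genes (17 tested, median log2 fold change -0.61), SPL and AP2-type age genes (13, -0.11), mitotic cyclins and CDKB kinases (14, 0.08), flavonoid genes (14, -1.09), jasmonate response genes (12, 0.05), stomatal lineage markers (9, -0.25) and xylem markers (10, -0.34) had 0 calls from edgeR in either direction. Among them the glyoxylate cycle gene ICL, used by seedlings that live on seed oil, was at 61.1, 728 and 222 CPM without HS and 51.9, 34 and 40.2 CPM at 52 h (log2 fold change -3.0 ± 1.52, edgeR adjusted p = 0.183), and the flavonoid gene DFR at 3.27, 30.8 and 14.8 CPM without HS and 2.34, 2.02 and 2.06 CPM at 52 h (log2 fold change -2.93 ± 1.54, edgeR adjusted p = 0.202). Both spread widely between the unheated libraries. At an adjusted p below 0.05 with no fold threshold, 1 flavonoid gene, 1 SPL or AP2-type gene and 2 xylem markers were lower and 1 jasmonate gene was higher. At an unadjusted p below 0.05, the lower genes were 4 flavonoid, 4 SPL or AP2-type, 5 xylem, 2 stomatal and 1 jasmonate. The higher ones were 1 flavonoid gene, 1 stomatal marker and 1 jasmonate gene, and no seed reserve or mitotic gene passed. These counts are read beside the 29.3% of all genes tested that passed this level in either direction. DESeq2 called none either, while a fit of the 6 libraries alone called 4 flavonoid genes and 1 seed reserve gene lower. On the fold change alone 7 flavonoid and 7 seed reserve genes were lower. Without no HS replicate 3, 52 h replicate 2 or 52 h replicate 3, 1 jasmonate gene rose, and without replicate 3 of all groups 1 jasmonate and 1 flavonoid gene rose. Of 13 ER stress genes only BIP3, named above, fell, beside 2.15% of all genes.

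**Figure D4:**
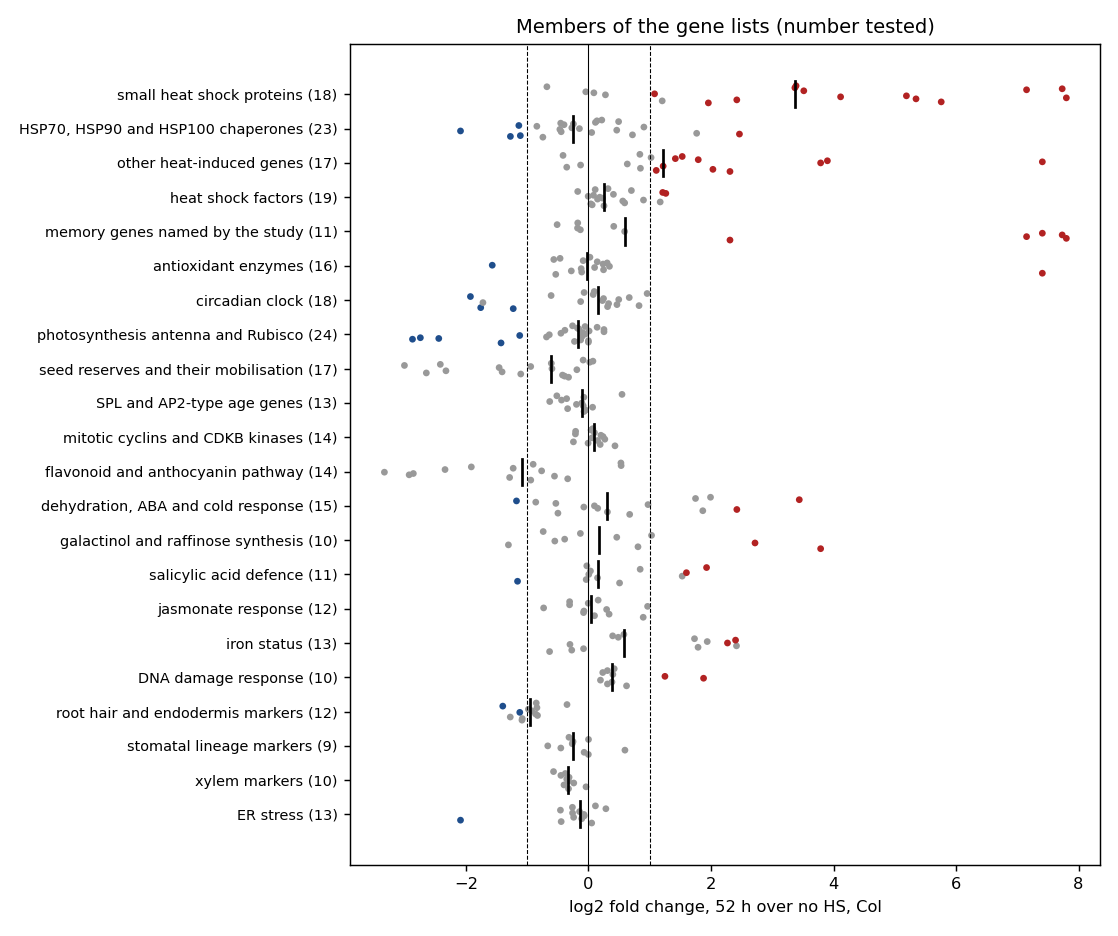
Log2 fold change at 52 h over no HS in Col for every tested member of the 22 gene lists, 1 point per gene, with the number tested in brackets and the list median as a black bar; red points rose, blue points fell and gray points did not pass the test, and dashed lines mark 1 and -1. Small heat shock proteins reach furthest to the right, and the root and xylem markers all lie left of 0.

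The mutant libraries address whether the state at 52 h needs HSFA2 and HSFA3. Their libraries are separate from those of Col. HSFA2 itself was at 0.205 to 0.445 CPM in the hsfa2 libraries at 52 h, below the Col libraries at 52 h, and at 0.334 to 1.36 CPM without HS, where it overlapped Col. HSFA3 was at 3.88 to 4.72 CPM in hsfa3-1 at 52 h and 1.98 to 2.87 CPM without HS, below every Col library of the same treatment. In the double mutant HSFA2 was at 0.0865 to 0.238 CPM and HSFA3 at 3.35 to 4.76 CPM at 52 h. Of the 456 genes that rose in Col, 257 rose in hsfa2, where 1.79% of all genes rose, 256 in hsfa3-1 (1.75% of all genes) and 213 in hsfa2 hsfa3-1 (1.65%). The sign was the same in 443, 446 and 424 of them. Of the 454 that fell in Col, 233 fell in hsfa2 (1.52% of all genes), 130 fell in hsfa3-1 (0.768%) and 249 fell in the double mutant (1.81%). Their sign was the same in 452, 451 and 451. In all, 171 of the genes that rose and 101 of those that fell were called in every mutant. By the shares above, at most 1.65% of all genes can have risen in every mutant and at most 0.768% fallen. The genes were chosen by their values in Col, so smaller changes in the mutants are no test of a difference.

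The difference of the changes was tested in the same fit. In hsfa2, 3 genes had a lower log2 fold change than in Col (0.0142% of genes): HSP18.2 (difference of log2 fold changes -5.22 ± 0.62, edgeR adjusted p = 1.15e-05), HSP22 (-5.3 ± 1.00, 0.0419) and AT5G37670 (-2.29 ± 0.42, 0.0405). The 52 h mean of HSP18.2 was 20.7 ± 4.19 CPM for hsfa2 (SD, n = 3), 105 ± 38 CPM for hsfa3-1 and 18.6 ± 4.81 CPM for the double mutant, against 408 ± 138 CPM for Col. All libraries of each mutant were below all Col libraries at 52 h. HSP22 averaged 3.44 ± 1.82 CPM, 9.56 ± 3.45 CPM and 0.79 ± 0.114 CPM in the mutants in that order, against 42.3 ± 8.25 CPM for Col. Its difference of log2 fold changes passed the test in hsfa2 only, not in hsfa3-1 or the double mutant. Of the 18 small heat shock proteins, 3 rose and 1 fell in hsfa2, 8 rose and 1 fell in hsfa3-1, and the double mutant had 3 rises and 1 fall, with median log2 fold changes of 0.88, 1.3 and 1.07. In hsfa3-1 no gene passed (0 of 21107 with edgeR, 0%), and DESeq2 called 1. At an unadjusted p below 0.05, 226 of the 21107 genes were lower and 96 higher in hsfa3-1. That is fewer than this level passes when there is no difference at all, so these counts are no sign of one. In hsfa2 hsfa3-1, 24 genes had a lower log2 fold change than in Col (0.114%) and 1, AGL16, a higher one (0.00474%). Among the 24, HSA32 was at -2.38 ± 0.31 (edgeR adjusted p = 3.63e-05): it averaged 3.49 ± 0.775 CPM without HS and 3.32 ± 0.352 CPM at 52 h in the double mutant. AT4G21323, a subtilase gene whose region overlaps HSA32, was at -2.77. GOLS1 (-2.42), EGY3 (-1.92), MBF1C (-1.71), HSP70T-2 (-2.23), HSP18.2 (-3.96) and AT5G37670 (-3.33) were among them. APX2 did not pass in any mutant, its difference in the double mutant being -7.23 ± 1.62 with an adjusted p of 0.0627. The 25 genes of the double mutant went to 6 without replicate 2 and 3 without replicate 3 of all groups, and the 3 of hsfa2 to 25 without replicate 1 and 1 without replicate 2 or 3. DESeq2 called 15 genes in hsfa2 and 42 in the double mutant, all of the 3 and 25 among them.

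None of the 454 genes that fell in Col passed the test of a different change in hsfa2 or hsfa3-1, where 0.0142% and 0% of all genes passed. In the double mutant 1 passed, AGL16, where 0.114% of all genes had a lower change and 0.00474% a higher one. With shares so small, these counts cannot tell whether the falls need HSFA2 or HSFA3. AGL16 (AT3G57230, chromosome 3), a MADS-box factor, was at 16.9, 17.8 and 16.6 CPM without HS and 6.97, 7.79 and 7.43 CPM at 52 h (log2 fold change -1.21 ± 0.12, edgeR adjusted p = 6.52e-09) in Col, and its log2 fold change in hsfa2 hsfa3-1 was -0.39. The mean of LHCB2.1 went from 895 ± 437 CPM without HS to 165 ± 32.6 CPM at 52 h for hsfa2, from 911 ± 467 CPM to 126 ± 13.5 CPM for hsfa3-1, and from 885 ± 399 CPM to 156 ± 15.9 CPM for the double mutant. Its log2 fold changes there were -2.44, -2.85 and -2.51, against -2.87 in Col. LHY was at -1.87, -1.61 and -1.67 in the same order and COR15B at 2.58, 2.68 and 2.67.

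**Figure D5:**
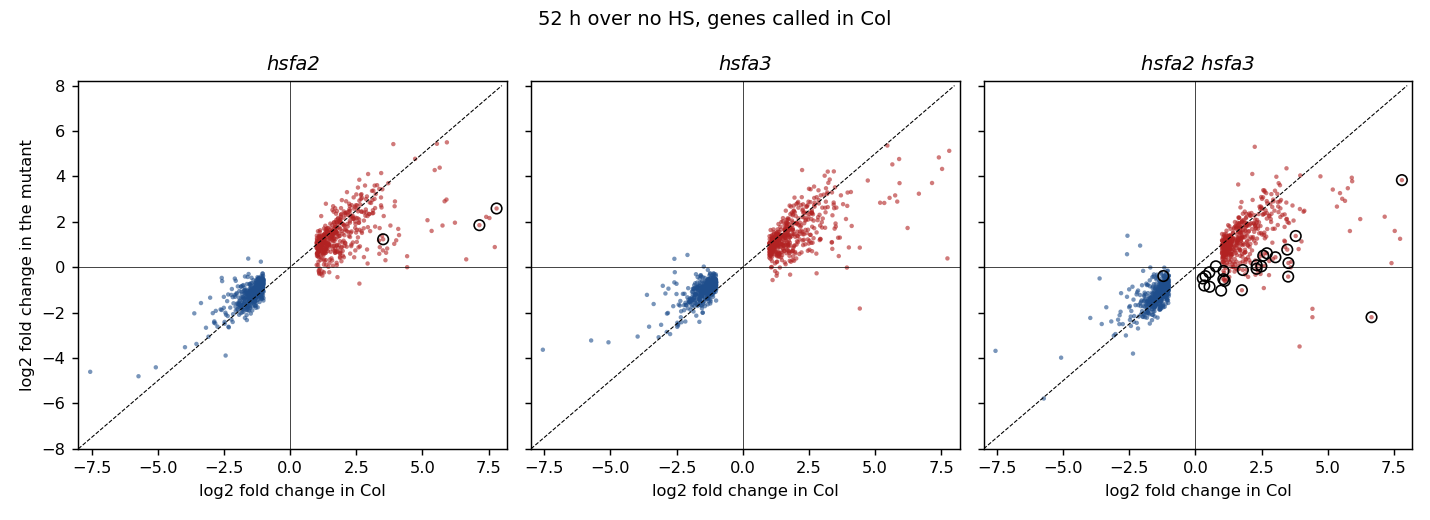
Log2 fold change at 52 h over no HS in hsfa2, hsfa3-1 and hsfa2 hsfa3-1 against that in Col, for the 456 genes that rose (red) and the 454 that fell (blue) in Col. The dashed line marks equal change, and black rings mark all genes whose change differed from Col at an edgeR adjusted p below 0.05 (3, 0 and 25 genes), including some that were not called in Col.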

How the data were processed

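Read pairs were aligned by the authors to TAIR10 with STAR 2.5.1a, and the deposited values are its counts of read pairs per gene, not normalized. The strand setting of the counting and the annotation version are not given in the sources used here, so overlapping genes are uncertain. Rows that name no gene held 7.30 to 8.00% of pairs in the 6 libraries and were left out. Of 33323 genes, 32835 matched the RefSeq table of TAIR10.1 (names, types, windows), and 26712 were protein-coding. Genes kept by filterByExpr (21107) went to edgeR 4.0.16 (R 4.3.3): TMM, quasi-likelihood, a coefficient for each of 16 groups, 32 residual degrees of freedom, two-sided, Benjamini-Hochberg adjustment, log2 fold change above 1 and adjusted p below 0.05. The interaction test used the adjusted p alone. A prior count of 2 entered the log2 CPM values only, and fold changes were fitted with the edgeR default. DESeq2 1.42.0, other normalizations, filters, libraries and thresholds and a replicate block were alternatives. The code was tested on simulated data. Genes were named by rule: the 12 largest rises and falls with separate libraries, at least 1 CPM in the higher group and no overlapping gene, genes the study names, called members of 22 lists, and genes past the interaction test. Members and lists were chosen with earlier results of these data known.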

Additional observations from a re-analysis of the deposited data

Results flagged for a closer look

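The change at 52 h differed from that in Col for named genes in 2 of the 3 mutants, by the test of the difference itself. Values are the log2 fold change in the mutant minus that in Col, at an edgeR adjusted p below 0.05. In hsfa2 these were HSP22 (-5.30), HSP18.2 (-5.22) and AT5G37670 (-2.29). In hsfa2 hsfa3-1 the lower values were those of AT5G53680 (-8.86), HSP18.2 (-3.96), AT1G72660 (-3.92), AT5G37670 (-3.33), AT4G21323 (-2.77), GDPD3 (-2.70), AT4G23493 (-2.59), AT3G50940 (-2.46), GOLS1 (-2.42), HSA32 (-2.38), HSP70T-2 (-2.23), MLP168 (-2.09), AT1G62290 (-2.06), AT2G20560 (-2.00), EGY3 (-1.92), MBF1C (-1.71), SYTD (-1.59), AT5G12110 (-1.40), ORTHL (-1.23), AT1G30070 (-1.14), RBL14 (-0.78), TPR2 (-0.77), AT1G49560 (-0.75) and AT5G58787 (-0.73). AGL16 was higher, at 0.82. AT5G53680, an RNA-binding protein gene with no read pair in any unheated Col library, had 39 read pairs over the 52 h libraries. That is at least 12.8-fold higher when 3 read pairs are allowed to the unheated group. Its difference of log2 fold changes depends on the default prior count of the edgeR fit. All these tests share the same 6 Col libraries. Groups of 3 libraries are too small for a test of single libraries against their group.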

How the results depend on the processing

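Counts of genes that rose or fell at 52 h kept within 1.5 times of 456 and 454 with DESeq2, its size factors, no filter, at least 1 CPM in 3 libraries, the 6 libraries or the 12 Col libraries alone and all genes in the files. Leaving out 1 library, or 1 replicate number in all groups, gave 214 to 467 rises and 169 to 489 falls. Thresholds moved them: 264 genes fell at an adjusted p below 0.01, 798 rose and 903 fell on the fold change alone, and 1636 and 1494 with no fold threshold. Same-numbered Col libraries deviated together at correlations of 0.395, 0.280 and 0.060. Differently numbered ones ran from -0.385 to 0.212, so 0.395 and 0.280 lay above that range and 0.060 within it. The main fit did not take the numbers to pair libraries, and a replicate block was the alternative. Entering the replicate number as a block gave 583 rises and 692 falls over all libraries, and 490 and 689 over the 6, and it changed the call of none of the 96 named genes in the fit of all libraries. Tests against Col gave, with DESeq2, 15 genes in hsfa2, 1 in hsfa3-1 and 42 in hsfa2 hsfa3-1, with the replicate block 17, 1 and 45, and leaving out replicate numbers 1 to 25, 0 to 2 and 3 to 31. Of 96 named genes under 18 alternatives, 56 kept their call and direction throughout, 1590 of 1724 values kept both, 129 missed a threshold passed before and 3 passed one missed before. The log2 fold change of HSFA2 ran from -0.14 (without replicate 1) to 1.67 over such omissions, and that of MYB86 from -0.76 to 0.029 (without no HS replicate 2). AT2G18190 and BIP3 had no value in the fits of the 6 libraries. The cause was not tested. A gene under 3 read pairs, 0.0891 to 0.0922 CPM, cannot be told from absence.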

Other observations

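Families named by the annotation show falls that the lists did not hold. They were picked after the values were seen and carry no test, and each is read beside the 2.16% of all genes that rose and 2.15% that fell. Of 60 genes of the lipid-transfer and seed storage albumin superfamily, 13 fell and 3 rose, and of 37 genes of the UPF0497 family, which holds the Casparian strip proteins, 7 fell, CASP1 and CASP5 among them. Of 55 peroxidase superfamily genes 9 fell and 6 rose, of 61 pectin lyase-like genes 8 fell and 2 rose, and of 108 cysteine and histidine-rich C1 domain genes 10 fell and 1 rose. In the other direction, 5 of 58 TIR-NBS-LRR disease resistance genes rose and none fell by edgeR, and of 46 thioredoxin superfamily genes 6 rose and 1 fell. Of those that rose, 5 (AT4G15660, AT4G15670, AT4G15680, AT4G15690 and AT4G15700) have consecutive locus numbers on chromosome 4, and reads could be divided between such close copies.

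The evening element (AAATATCT), a promoter motif of evening-phased genes, which neither contains the heat shock element motif nor lies within it, was searched in the same windows on both strands after the clock values were seen. It stood in 1243 of 21106 windows of genes tested (5.89%), in 56 of the 456 genes that rose (12.3%), in 12 of the 454 that fell (2.64%) and in 7 of 18 clock genes. No test was made, and a match is not a bound site. The matches of 2 transcription factor genes that rose are shown 5′ to 3′ on the strand of the gene, with the motif in capitals.
HSFA8, first match, chr1:25486535-25486562, minus strand: ttttaaataaAAATATCTgttgggccaa
HSFA8, next match, chr1:25486509-25486536, minus strand: aaagacttaaAAATATCTaaaaccgtga
DREB2B, chr3:3455295-3455322, plus strand: aaaatatcagAAATATCTagacaaagtt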
